A study of Mus musculus with 7 samples.

Results

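The genes described here are the 34 genes of cholesterol synthesis, its control and cholesterol transport that were listed by name and matched to the symbols of the deposited expression table. All 34 were found among its 56941 rows, each on 1 row, and all 34 were among the 17582 genes that had a mean of at least 1 TPM (a level scaled by transcript length and by library) and were tested. Expression was measured by RNA sequencing of fresh cerebral cortex from mice at postnatal day 7. Wild-type (WT) mice gave 4 samples and Hnrnph2 P213L mice gave 3; Hnrnph2 encodes an RNA-binding protein and lies on the X chromosome. The study asks how this variant affects myelin and the oligodendrocytes that form it. The labels used here give no strain, no sex, no account of how the allele was made and no statement that samples came from separate animals. The p-values therefore cover the spread among the 7 samples, part of which may be technical.

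The brain makes nearly all of its own cholesterol, because lipoproteins do not cross the blood-brain barrier, and myelin is rich in it. Synthesis runs from acetyl-CoA through mevalonate to squalene, which is then closed into lanosterol and trimmed to cholesterol. When sterol in the endoplasmic reticulum is low, the factors SREBP1 and SREBP2 (genes Srebf1 and Srebf2) are carried to the Golgi by Scap, cut, and switch on the enzyme genes, while Insig1 and Insig2 hold them back. Cholesterol leaves cells through Abca1 and Abcg1 onto particles that carry Apoe, under the liver X receptors Nr1h2 and Nr1h3, and neurons clear it through Cyp46a1.

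The 34 genes were divided by role into 18 synthesis enzymes, 5 genes of SREBP control, 2 liver X receptors and 9 genes of transport and turnover. Promoters with a short box that is the binding site of NF-Y, a factor that acts beside SREBP on sterol genes, were counted for each role. The 250 bases before the RefSeq start sites (GRCm38.p6, the mm10 build) were searched on both strands for that box (CCAAT, read as ATTGG from the other strand) and for TCACNCCAC, an SREBP element in which N is any base. RefSeq windows were matched for 28 of the 34 genes. CCAAT was found before at least 1 start site of 14 of 15 enzymes, 4 of 5 SREBP control genes, 3 of 6 transport genes and 0 of 2 liver X receptors. The box lay in 39.9% of the tested genes with a window and in 33.8% of all 32851 windows. TCACNCCAC was found in 1 of the 28 genes, Hmgcs1 (3.57%), against 1.24% of the tested genes with a window and 1.05% of all windows. A match is a run of letters and not a measured binding site. The role groups are small, and their shares were not compared by a test. The windows below show Hmgcs1, the enzyme gene with both motifs, Mvk, the enzyme gene with most CCAAT boxes, and Abca1, a transport gene with neither; capitals mark a match to either motif. Each is written 5′ to 3′ on the strand of the gene, Hmgcs1 from chr13:119690101-119690350 (plus strand), Mvk from chr5:114444019-114444268 (plus strand) and Abca1 from chr4:53159896-53160145 (minus strand).
Hmgcs1: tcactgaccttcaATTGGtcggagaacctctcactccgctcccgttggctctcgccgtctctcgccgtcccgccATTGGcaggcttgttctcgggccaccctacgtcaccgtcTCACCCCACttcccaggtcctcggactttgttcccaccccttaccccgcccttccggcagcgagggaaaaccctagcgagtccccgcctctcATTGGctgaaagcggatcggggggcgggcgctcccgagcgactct
Mvk: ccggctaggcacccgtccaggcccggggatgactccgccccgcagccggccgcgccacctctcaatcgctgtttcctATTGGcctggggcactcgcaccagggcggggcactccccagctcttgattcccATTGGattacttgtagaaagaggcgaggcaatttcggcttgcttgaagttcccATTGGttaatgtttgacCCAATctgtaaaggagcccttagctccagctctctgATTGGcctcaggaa
Abca1: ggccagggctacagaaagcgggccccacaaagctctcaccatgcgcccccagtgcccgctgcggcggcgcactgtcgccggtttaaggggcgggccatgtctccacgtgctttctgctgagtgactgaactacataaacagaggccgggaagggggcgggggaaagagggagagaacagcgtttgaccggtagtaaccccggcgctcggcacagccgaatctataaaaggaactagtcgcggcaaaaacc

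WT replicate 3 stood apart from the other libraries. Its correlation with each of them across the tested genes was 0.943 to 0.949, while the medians of the other 6 libraries were 0.986 to 0.989, and 28367 rows were above 0 in it against 31387 to 32526. TPM keeps no read total, so the depth of the libraries is not known from these values. The cortical genes Emx1 and Tbr1 were expressed in every sample, Emx1 at 59.3 to 77.7 TPM and Tbr1 at 73.5 to 89.7 TPM. WT replicate 2 held 1216 TPM of the choroid plexus gene Ttr, while the other 6 samples, WT and P213L, held 0.22 to 1.36 TPM. Because WT replicate 3 stood apart in its correlations, results for the cholesterol genes are given with and without it.

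No member differed between the genotypes past the threshold. With limma and Benjamini-Hochberg adjustment over all genes, 0 of 34 members had an adjusted p under 0.05 (the lowest was 0.827), and 0 of 34 had an unadjusted p under 0.05. Over all tested genes, 0% passed the adjusted threshold and 3.74% the unadjusted one, 2.36% higher and 1.38% lower in P213L. Log2 differences (P213L less WT on log2(TPM + 0.5), a scale that understates the change of low genes) ran from -0.18 for Msmo1 to 0.43 for Npc1. Their 95% intervals, not adjusted for the number of genes, lay within -0.5 to 0.5 for 23 members and within -1 to 1 for 32. In bulk tissue, fewer cells of a type and less RNA per cell cannot be told apart.

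More differences were positive than negative under the deposited scaling. Of the 34 members, 27 had a positive log2 difference, as had 63.4% of all tested genes. The median was 0.10 over the members and 0.07 over all tested genes. With median-of-ratios scaling, 19 of 34 were positive, against 49.1% of all tested genes. Without WT replicate 3, 24 of 34 were positive, against 49.7%.

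**Figure D1:**
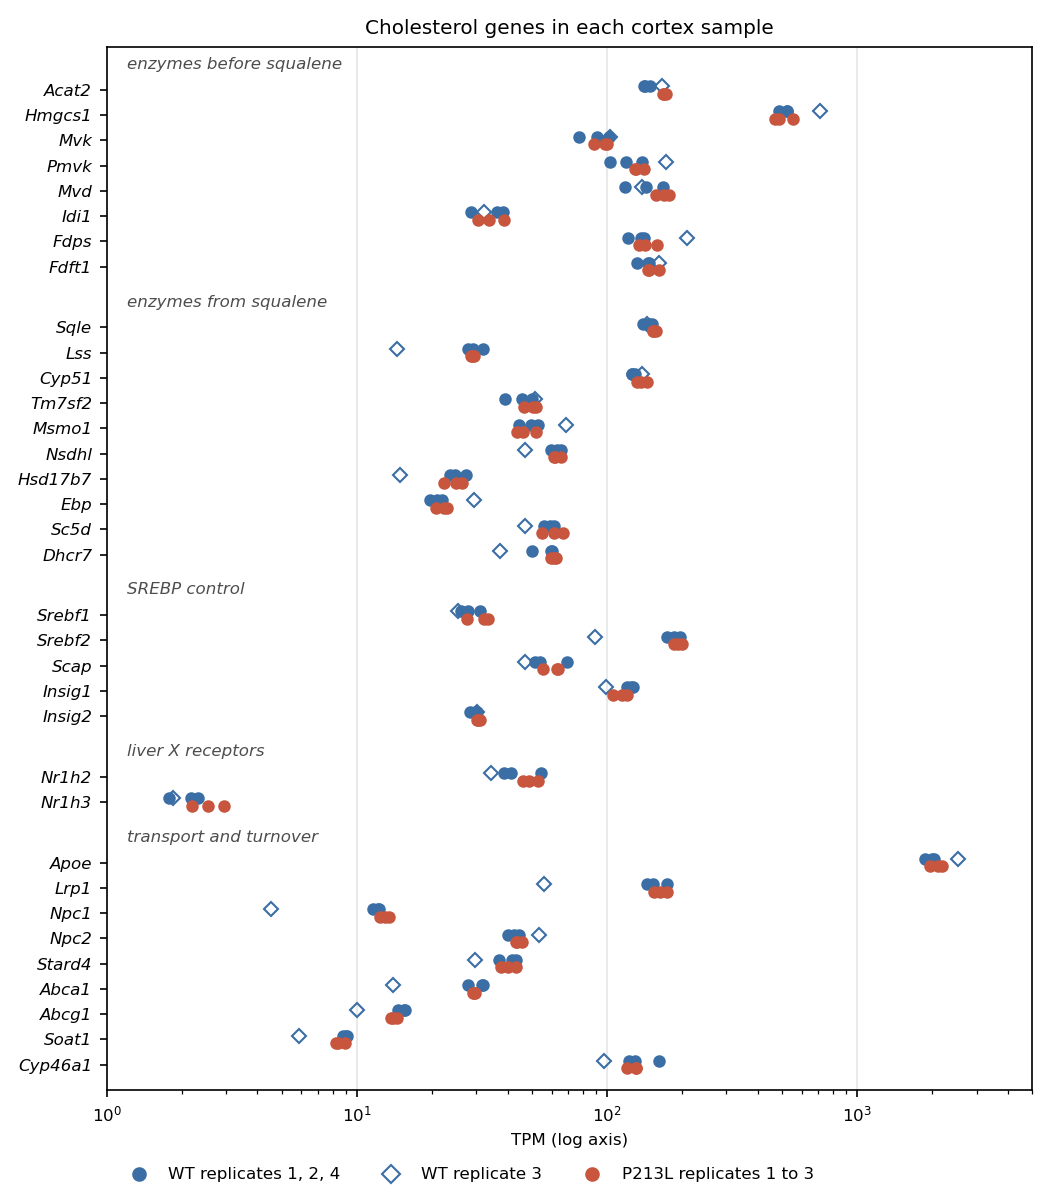
TPM of each of the 34 genes (log axis) in each sample, by role: filled blue points are WT replicates 1, 2 and 4, open diamonds WT replicate 3 and red points the 3 P213L samples. WT replicate 3 was the lowest of all 7 samples for 17 genes and the highest for 8.

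Among the 8 enzymes that lead to squalene, Hmgcs1 had the highest level. Hmgcs1 (chromosome 13, 119690379 to 119708260, plus strand, mm10) makes HMG-CoA, the substrate of the mevalonate pathway. It stood at 486.9, 525.5, 712.0 and 522.2 TPM in WT replicates 1 to 4 and at 467.9, 555.7 and 486.7 TPM in P213L replicates 1 to 3. WT replicate 3 was highest, and the groups overlapped. The log2 difference was -0.15 ± 0.15 (SE; adjusted p = 0.827 in limma; exact permutation p = 0.514, two-sided over 35 splits, where 0.0286 is the smallest possible). Without WT replicate 3 it was -0.03 ± 0.08.

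Acat2, the cytosolic thiolase that starts the pathway by joining acetyl-CoA units, was 1 of 3 members whose groups did not overlap. Acat2 (chromosome 17, 12942890 to 12960747, minus strand) stood at 149.0, 142.3, 166.5 and 140.9 TPM in WT and at 172.8, 169.5 and 167.0 TPM in P213L. All 3 P213L values lay above all 4 WT values, by a narrow margin over WT replicate 3. The log2 difference was 0.18 ± 0.10 (SE; adjusted p = 0.827 in limma; exact permutation p = 0.0571). Without WT replicate 3 it was 0.24 ± 0.05 (95% interval 0.12 to 0.36), and Acat2 was then the only member at an unadjusted p under 0.05, where 4.7% of all genes were higher and 3.95% lower at that p (limma adjusted p = 0.466). Acat3, a near copy on the same chromosome, was looked at after these values were seen and stood at 0.736 to 1.69 TPM over the 7 samples.

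Mvd, which decarboxylates the mevalonate product, had the largest positive difference among these 8. Its level was 167.5, 117.7, 138.0 and 143.1 TPM in WT and 177.3, 156.2 and 169.6 TPM in P213L. WT replicate 1 lay within the P213L values. P213L less WT gave 0.25 ± 0.13 on the log2 scale (SE; limma adjusted p = 0.827), and 0.24 ± 0.12 without WT replicate 3.

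With all samples, the remaining early enzymes lay closer to 0. The kinases Mvk and Pmvk stood at 93.1 ± 11.7 and 132.9 ± 29.6 TPM in WT (SD, n = 4) and at 95.5 ± 6.08 and 133.6 ± 5.96 TPM in P213L (SD, n = 3). The isomerase Idi1 was the lowest of the early enzymes, at 33.8 ± 4.33 and 34.4 ± 4.18 TPM. Fdps and Fdft1, which join the isoprene units into farnesyl diphosphate and then squalene, stood at 151.7 ± 38.5 and 146.6 ± 12.3 TPM in WT and at 144.3 ± 12.4 and 151.5 ± 9.15 TPM in P213L. Their log2 differences were 0.04 for Mvk, 0.03 for Pmvk, 0.03 for Idi1, -0.04 for Fdps and 0.05 for Fdft1, each smaller than its SE. With WT replicate 3 left out they were 0.09 ± 0.10, 0.16 ± 0.10, 0.01 ± 0.13, 0.12 ± 0.08 and 0.10 ± 0.07 (SE). Those of Pmvk, Fdps and Fdft1 were then larger than their SE. In WT replicate 3, Fdps stood at 208.0 TPM and Pmvk at 171.9 TPM, above all other samples. Exons of Fdps share 26.7% of their length with the gene model Gm43738 on the same strand, and those of Fdft1 share 18.3% with Ctsb on the opposite strand. No label gives the strand setting of the counting. A stranded count would separate Fdft1 from Ctsb but not Fdps from Gm43738, so the values of both are uncertain. Exons of Scap (13.2%) and Hmgcs1 (12.1%) also overlap other genes on the opposite strand.

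The enzymes from squalene to cholesterol gave 1 further case without overlap. Sqle, the squalene epoxidase that commits carbon to sterols, stood at 146.7, 139.2, 144.8 and 151.4 TPM in WT and at 157.4, 152.6 and 153.3 TPM in P213L. The P213L samples lay above all WT samples, and the whole range was narrow, with the highest sample 1.13 times the lowest. On the log2 scale the groups differed by 0.09 ± 0.09 (SE; 95% interval -0.11 to 0.28; adjusted p = 0.827 in limma; exact permutation p = 0.0571). Without WT replicate 3 it was 0.08 ± 0.05.

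Cyp51, the lanosterol demethylase, was nearly as steady. It stood at 128.9, 125.9, 137.5 and 125.3 TPM in WT and at 137.3, 144.5 and 132.3 TPM in P213L. Only WT replicate 3 reached into the P213L range. Its log2 difference was 0.09 ± 0.09 (SE; adjusted p = 0.827 in limma; exact permutation p = 0.143), and 0.12 ± 0.05 without that library.

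Dhcr7, which makes cholesterol in the last step of one branch, had the largest positive difference of the enzymes. It stood at 60.5, 50.1, 37.5 and 59.5 TPM in WT and at 62.5, 59.6 and 61.1 TPM in P213L. WT replicate 3 was lowest, and WT replicates 1 and 4 lay close to the P213L samples. P213L exceeded WT by 0.26 ± 0.17 on the log2 scale (SE; adjusted p = 0.827 in limma; exact permutation p = 0.2), and 0.11 ± 0.08 without WT replicate 3.

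The other 7 late enzymes had log2 differences from -0.18 to 0.22. Lss, which closes squalene epoxide into lanosterol, had 14.5 TPM in WT replicate 3, 27.8 to 31.8 TPM in the other WT samples and 28.5 to 29.3 TPM in P213L. Its log2 difference of 0.22 ± 0.26 (SE) became -0.03 ± 0.07 without that library. Hsd17b7, a sterol ketone reductase, followed the same course, from 0.15 ± 0.21 to -0.04 ± 0.09. Msmo1, the sterol methyl oxidase, was the member with the lowest difference (-0.18 ± 0.16), with 68.6 TPM in WT replicate 3, 44.4 to 53.1 TPM in the other WT samples and 43.6 to 51.8 TPM in P213L. Without that library its difference was -0.06 ± 0.09, and Insig1 was then the lowest member. Tm7sf2, a sterol reductase, had a difference of 0.10, the decarboxylating dehydrogenase Nsdhl of 0.11, the isomerase Ebp of -0.04 and the desaturase Sc5d of 0.13, each near or below its SE. With WT replicate 3 left out they were 0.15 ± 0.10, 0.01 ± 0.06, 0.08 ± 0.07 and 0.05 ± 0.08 (SE). Exons of Tm7sf2 share 12.1% of their length with Vps51 on the same strand.

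None of the 5 genes of SREBP control passed the test. Srebf2, the main activator of sterol synthesis, stood at 195.9, 173.2, 89.4 and 184.5 TPM in WT and at 192.4, 185.7 and 199.6 TPM in P213L. WT replicate 3 was lowest, and the other WT samples overlapped with P213L. Its log2 difference was 0.32 ± 0.26 (SE; adjusted p = 0.827 in limma; exact permutation p = 0.429), and 0.06 ± 0.06 without that library. Insig1, itself an SREBP target that retains Scap in the endoplasmic reticulum, stood at 127.1, 120.1, 98.9 and 124.2 TPM in WT and at 105.4, 115.2 and 120.6 TPM in P213L. Its groups overlapped, with a log2 difference of -0.04 ± 0.12 (SE; limma adjusted p = 0.913), and -0.12 ± 0.07 without WT replicate 3. Insig2 varied least of all members, from 28.4 to 31.0 TPM. Scap had a log2 difference of 0.14 ± 0.15, and Srebf1, which acts mainly on fatty acid genes, of 0.17 ± 0.12 (SE). Scap moved to 0.07 ± 0.12 without WT replicate 3 and to 0.25 without WT replicate 1, and Srebf1 to 0.13 ± 0.10 without WT replicate 3.

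The liver X receptors, which sense oxidised sterols, differed in level from each other. Nr1h2, the widely expressed form, stood at 54.2, 38.7, 34.5 and 41.3 TPM in WT and at 53.0, 46.0 and 48.6 TPM in P213L. WT replicate 1 was the highest sample, so the groups overlapped. Nr1h3 stood at 2.32, 2.17, 1.84 and 1.78 TPM in WT and at 2.93, 2.20 and 2.53 TPM in P213L, the lowest level of the 34 genes. Their log2 differences were 0.24 ± 0.16 and 0.27 ± 0.16 (SE; limma adjusted p = 0.827 for both), and 0.15 ± 0.13 and 0.24 ± 0.15 without WT replicate 3.

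Apoe, the main lipoprotein component of the brain, had the highest level of all members. It stood at 2032, 1861, 2534 and 1989 TPM in WT and at 2177, 1948 and 2098 TPM in P213L. WT replicate 3 was highest and WT replicate 2 lowest, with the P213L samples between them. The log2 difference was -0.01 ± 0.12 (SE; 95% interval -0.30 to 0.28; adjusted p = 0.978 in limma; exact permutation p = 0.971), and 0.08 ± 0.07 without WT replicate 3.

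Lrp1, a receptor that takes up Apoe particles, and Npc1, which moves cholesterol out of lysosomes, had the widest spread. Npc1 stood at 12.2, 12.1, 4.54 and 11.5 TPM in WT and at 13.5, 12.4 and 12.9 TPM in P213L. All P213L samples lay above all WT samples, by little over WT replicates 1, 2 and 4. The log2 difference was 0.43 ± 0.32 (SE; adjusted p = 0.827 in limma; exact permutation p = 0.314), and 0.11 ± 0.07 without WT replicate 3. Lrp1 had 56.2 TPM in WT replicate 3, 143.9 to 173.6 TPM in the other WT samples and 153.5 to 173.9 TPM in P213L, with log2 differences of 0.43 ± 0.36 and 0.06 ± 0.08 with and without that library.

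Both efflux pumps were lowest in WT replicate 3. Abca1 stood at 27.9, 31.5, 14.0 and 32.0 TPM in WT and at 29.0, 29.4 and 29.6 TPM in P213L. The P213L values lay inside the WT range. For Abca1 the log2 difference was 0.22 ± 0.28 (SE; adjusted p = 0.832 in limma; exact permutation p = 0.914), and -0.05 ± 0.07 without WT replicate 3. Abcg1, the partner pump, had 9.99 TPM in WT replicate 3, 14.5 to 15.6 TPM in the other WT samples and 13.7 to 14.5 TPM in P213L. Without that library its groups did not overlap (log2 difference -0.11 ± 0.07, SE; limma adjusted p = 0.637), and it was the only member lower in that way.

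Cyp46a1, the neuronal hydroxylase that turns cholesterol into a form able to leave the brain, stood at 160.8, 122.6, 97.5 and 129.4 TPM in WT and at 130.1, 120.2 and 131.1 TPM in P213L. WT held both the highest and the lowest sample. For Cyp46a1 the log2 difference was 0.02 ± 0.16 (SE; adjusted p = 0.977 in limma; exact permutation p = 0.886), and -0.10 ± 0.10 without WT replicate 3. Soat1, which esterifies cholesterol for storage, had a difference of 0.07 ± 0.17, the lysosomal carrier Npc2 of -0.02 ± 0.12 and the cytosolic carrier Stard4 of 0.10 ± 0.15 (SE). Leaving out WT replicate 3 gave -0.07 ± 0.07, 0.06 ± 0.06 and -0.01 ± 0.08 for Soat1, Npc2 and Stard4.

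In all, 3 of 34 members (8.82%) had groups without overlap, Acat2, Sqle and Npc1, and all 3 were higher in P213L. Over all tested genes, 8.69% did not overlap, 5.94% higher and 2.75% lower. Without WT replicate 3, 6 members did not overlap, Abcg1 lower and Acat2, Sqle, Cyp51, Insig2 and Npc1 higher, where 7.33% of all genes were higher and 6.83% lower. The exact permutation p of each of the 6 was 0.1, the smallest that 3 against 3 samples allow. The intervals were narrower without that library, with 32 of 34 within -0.5 to 0.5.

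**Figure D2:**
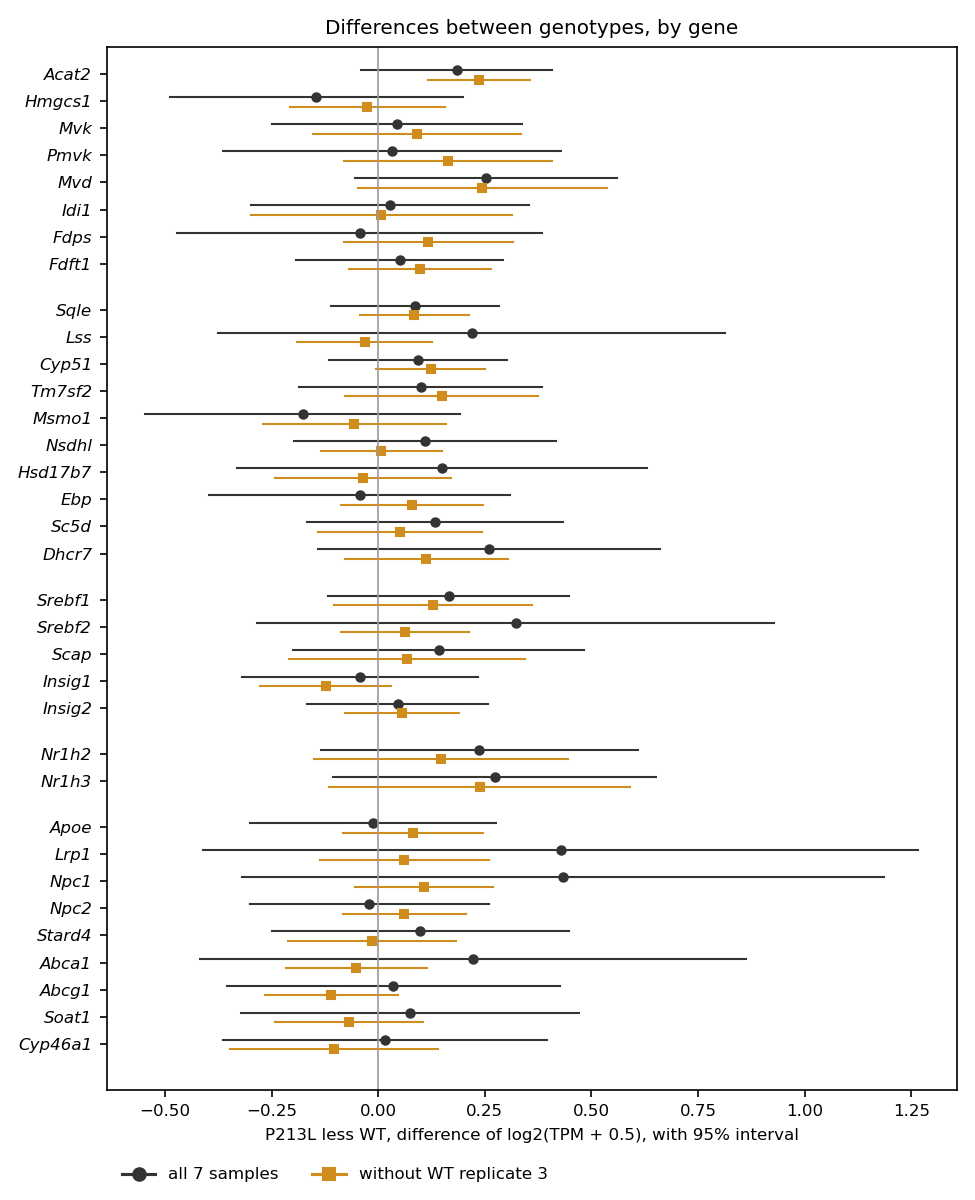
Log2 difference of each gene (P213L less WT) with its 95% interval from limma, in all 7 samples (black) and without WT replicate 3 (orange). All black intervals include 0, and the orange interval of Acat2 (0.12 to 0.36) does not.

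With sample weights estimated by limma, the outcome was different. WT replicate 3 then had a weight of 0.0431. WT replicate 4 held 75.1% of the WT weight and P213L replicate 3 held 76.2% of the P213L weight, so the fit rests largely on 1 library of each genotype. In that fit 5 of 34 members (14.7%) passed an adjusted p of 0.05, all higher in P213L, where 22.6% of all tested genes passed, 13.3% higher and 9.3% lower. They were Acat2 (log2 difference 0.24 ± 0.04), Mvd (0.27 ± 0.07), Srebf1 (0.20 ± 0.06), Nr1h2 (0.23 ± 0.06) and Nr1h3 (0.35 ± 0.10; SE). The members' share was below the 22.6% of all genes that passed in either direction and near the 13.3% that passed higher.

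Enzymes and transport genes were set against each other in each sample as the mean log2(TPM + 0.5) of each group. No test was made of these means, since the genes were chosen with earlier results of these data known. WT had an enzyme mean of 6.28 ± 0.05 (SD, n = 4), and P213L had one of 6.36 ± 0.0088 (SD, n = 3). The 3 P213L samples, at 6.35 to 6.37, lay above the 4 WT samples, at 6.21 to 6.32. With median-of-ratios scaling they did not, since WT replicate 3 then stood at 6.57 and the P213L samples at 6.29 to 6.31. With quantile normalization WT replicate 3 stood at 6.43, also above the P213L samples at 6.32 to 6.34. With mitochondrial genes removed WT replicate 4 stood at 6.43, within the P213L range of 6.42 to 6.47. WT replicate 2 was the lowest of the 7 samples for 8 of the 18 enzymes.

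For the transport genes the mean was 5.62 ± 0.29 in WT and 5.76 ± 0.02 in P213L. It was 5.19 in WT replicate 3 and 5.74 to 5.80 in the remaining WT samples, which overlaps the P213L range of 5.74 to 5.78. The enzyme mean less the transport mean was 0.66 ± 0.30 in WT and 0.59 ± 0.03 in P213L, a difference of -0.07. WT replicate 3 stood at 1.11. Without it, the WT mean was 0.51 ± 0.04 and the difference turned to 0.08, with all 3 P213L samples (0.57 to 0.62) above the 3 WT samples (0.47 to 0.55).

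**Figure D3:**
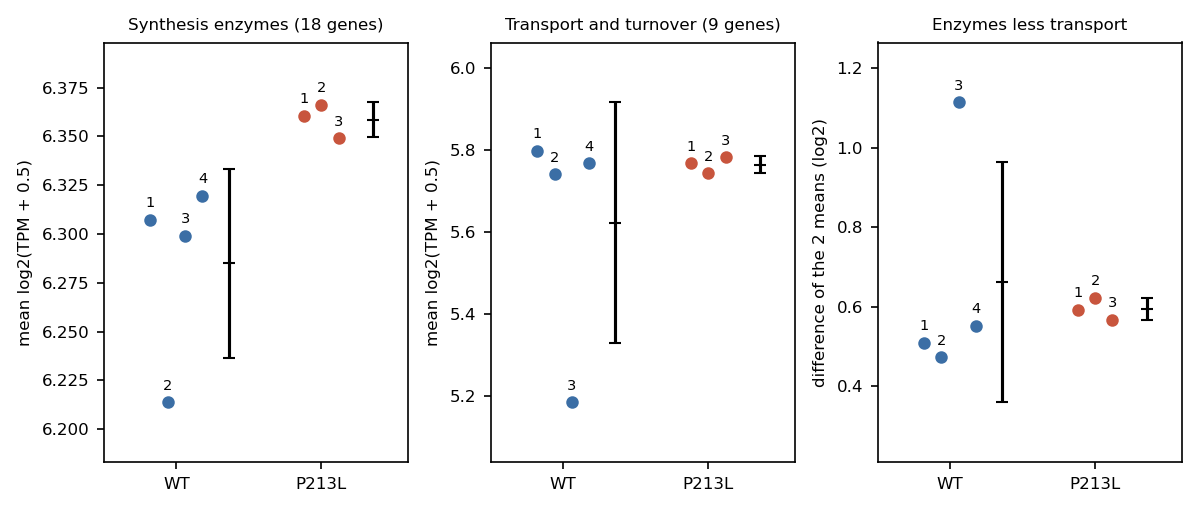
Mean log2(TPM + 0.5) of the 18 enzymes, of the 9 transport and turnover genes, and the first less the second, for each sample (points, numbered by replicate) with the group mean and SD (bars). WT replicate 3 lies apart in the transport mean (5.19) and in the difference (1.11), and within the WT range for the enzymes.

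The members did not move together in WT replicate 3. Against the mean of the other WT samples, 21 of 34 members were lower in it and 13 higher, from -1.47 for Lrp1 to 0.65 for Fdps on the log2 scale. Of the 9 transport genes 7 were lower, with a median of -0.57, and of the 18 enzymes 8 were lower, with a median of 0.15. The transport genes also had longer transcripts, with a median exon-union length of 7298 bases in GENCODE vM21 against 4315 bases for the enzymes. Of the 15 members of 5000 bases or more, 13 were lower (median -0.58), and of the 19 shorter ones 8 were lower (median 0.12). Spearman's rho between length and deviation was -0.62 across the 34 genes, which share 1 library and are not independent. The part of length in the deviations was not tested.

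**Figure D4:**
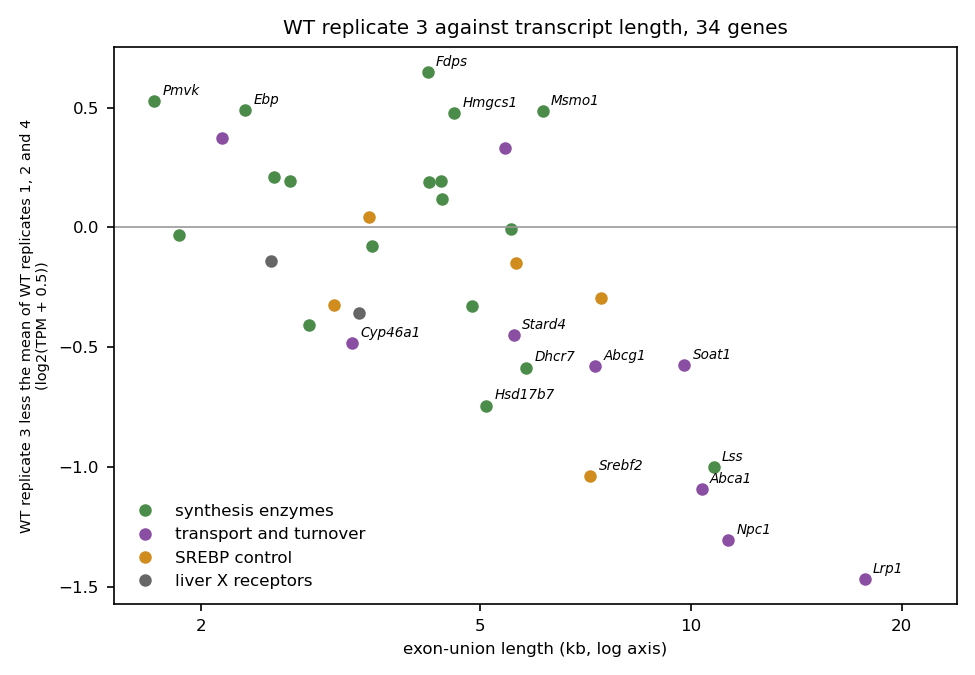
Deviation of WT replicate 3 from the mean of WT replicates 1, 2 and 4 on the log2(TPM + 0.5) scale against exon-union length (kb, log axis) for the 34 genes, coloured by role. Lrp1 (-1.47), Npc1 (-1.30) and Abca1 (-1.09), lie lowest, and the genes above 0.4 are all enzymes.

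Levels were ordered by WT mean, which TPM allows between genes since it is per length. Apoe (2104 TPM) and Hmgcs1 (561.7 TPM) stood first and second, and the ranges of their WT samples did not overlap with each other or with the next gene. A run of 12 genes followed, from Srebf2 (160.7 TPM) to Mvk (93.1 TPM), in which each overlapped its neighbour. Of the early enzymes 7 of 8 were in the first 14 places, and of the late enzymes 2 of 10, Sqle and Cyp51. The next group ran from Nsdhl (58.8 TPM) down to Soat1 (8.21 TPM), again with overlap between all neighbours, and Nr1h3 (2.02 TPM) came last. The order and ranges include WT replicate 3, and some of the overlaps rest on it. In the other WT samples Srebf2 had 173.2 to 195.9 TPM and Fdps 121.3 to 140.9 TPM. Hsd17b7 had 23.6 to 27.4 TPM there, Abcg1 14.5 to 15.6, Npc1 11.5 to 12.2 and Soat1 8.76 to 9.13.

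Other genes of the pathway did not pass the adjusted threshold either. Of 27 further genes of sterol control, uptake and oxidation, 0 passed in limma and 0 had an unadjusted p under 0.05, with 21 positive and 6 negative differences. The lowest p belonged to Gramd1a, a carrier of plasma membrane cholesterol (log2 difference 0.34 ± 0.15), Stard3 (0.35 ± 0.17), the plasma cholesterol esterifier Lcat (0.23 ± 0.11) and the lipid pump Abca7 (0.52 ± 0.26; SE). These 4 differences were 0.25, 0.23, 0.17 and 0.31 without WT replicate 3, and 14 of the 27 genes were positive and 13 negative. In that fit 3 of the 27 had an unadjusted p under 0.05 and 0 passed the adjusted threshold: Lcat, which was positive, and Gramd1b (-0.14) and Nceh1 (-0.30), which were negative and are named here after their values were seen. Of 12 fatty acid genes under SREBP, 0 passed and 0 had an unadjusted p under 0.05, with 10 positive. They included Fads2 (0.19 ± 0.12), Acly (0.30 ± 0.20), the fatty acid synthase Fasn (0.48 ± 0.34) and Scd1 (0.23 ± 0.19; SE). These were 0.10, 0.11, 0.13 and 0.06 without WT replicate 3, with 9 of 12 positive, and 1 gene, Gpam (-0.23, also named after its value was seen), had an unadjusted p under 0.05. WT replicate 3 was the lowest sample for 11 of these 12 and for 20 of the 27 sterol genes.

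Markers of the cells that make or use cholesterol were measured in the same samples. The 10 markers of myelinating oligodendrocytes had a sum between 333.5 and 388.5 TPM in the WT samples and between 261.1 and 276.1 TPM in the P213L samples. Of the 8 that were tested, 7 had a negative difference, and 5 of these did not overlap between the groups, where 2.75% of all genes were lower in that way. None passed the adjusted threshold, and Opalin and Ermn stayed under 1 TPM. The 6 markers of oligodendrocyte precursors held 455.2 to 580.6 TPM (WT) and 531.2 to 573.5 TPM (P213L), with WT replicate 3 lowest. Of these 6, 5 had a positive difference and 0 passed the adjusted threshold. Olig2 was higher in P213L without overlap, where 5.94% of all genes were higher in that way. The 18 enzymes together held 1858 to 2285 TPM (WT) and 2016 to 2079 TPM (P213L), so their groups overlapped. Astrocytes make most of the Apoe of the brain, and their 9 markers held 986.2 to 1473 TPM (WT) and 1177 to 1244 TPM (P213L), with WT replicate 3 lowest. Of these 9, 4 had a negative difference, and Aldoc and S100b were lower in P213L without overlap. The 9 neuronal markers summed to 6499 to 7187 and 6731 to 7042 TPM, and 1 of them, Snap25, was lower without overlap. The 8 microglial markers held 246.9 to 292.4 TPM (WT) and 235.6 to 241.3 TPM (P213L), with negative differences for 8 of 8 and 1, Siglech, without overlap. No marker of these lists was at 0 in all samples. Their part in the values of the cholesterol genes was not tested.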

How the data were processed

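The submitters made strand-specific mRNA libraries from TRIzol RNA, per the labels' protocols. The submitters' processing notes list HISAT2 (an aligner), HTSeq (a read counter) and mm10, without versions, annotation, gene lengths or strand setting. Per the file headers, the authors deposited 1 TPM value for each gene in each sample, and TPM depends on the few most abundant transcripts of each library.

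The members and lists were chosen with earlier results of these data known. All members were named, and the value in every sample was given for those at an unadjusted p under 0.05, those without overlap and a fixed set of 9. Mvd, Nr1h2 and Nr1h3 were added after their values were seen. Of the other pathway lists, the 4 genes with the lowest p were named.

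Samples were grouped by title. Genes averaging 1 TPM or more were fitted as log2(TPM + 0.5), with limma 3.58.1 in R 4.3.3 (mean-variance trend, no covariate, two-sided, Benjamini-Hochberg threshold 0.05). Single genes were also compared by exact permutation over 35 splits, unadjusted over the 34 genes. The fit was tested on simulated data, and the outcome is not given here. Positions and lengths came from GENCODE vM21, read with Python 3.11.15 and pandas 2.3.3, and promoters from RefSeq. Alternatives were other pseudocounts, filters, scalings, fits without the trend, with sample weights or with a replicate block, and each sample left out. Some cortical marker genes are not reported here.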

Additional observations from a re-analysis of the deposited data

Results flagged for a closer look

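In 37 measures of the 4 WT samples (34 genes and 3 group means), samples far from the other 3 were looked for with Dixon's criterion, which chance meets in about 1 in 20 such groups. There were 9, each in WT replicate 3. The 37 measures share the same 4 libraries, and the 3 group means are built from the same genes. The measures are therefore not independent, and 1 library can give many such cases at once. On the log2(TPM + 0.5) scale, Lrp1, the Apoe receptor, stood at 5.83, against 7.17 to 7.44 in the other WT samples. Npc1, the lysosomal exporter, stood at 2.33, against 3.59 to 3.67 in the other WT samples. The pumps followed, with Abca1 at 3.86, against 4.83 to 5.02 in the other WT samples, and Abcg1 at 3.39, against 3.91 to 4.01 in the other WT samples. Soat1, the storage enzyme, stood at 2.67, against 3.21 to 3.27 in the other WT samples. Srebf2 stood at 6.49, against 7.44 to 7.62 in the other WT samples. Lss was the 1 enzyme, at 3.91, against 4.82 to 5.01 in the other WT samples. The transport mean stood at 5.19, against 5.74 to 5.80 in the other WT samples, and the enzyme mean less the transport mean at 1.11, against 0.47 to 0.55 in the other WT samples. All 7 of these genes were low in that library, and their exon-union lengths were 7184 to 17717 bases, against a median of 4504.5 over the members.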

How the results depend on the processing

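The count of members past the adjusted threshold stayed at 0 with every pseudocount, filter and scaling tried, without the trend, with the replicate block and with each sample left out, and was 5 with sample weights. With 1 sample left out in turn, the median log2 difference of the enzymes ran from 0.064 to 0.091, that of the transport genes from -0.014 to 0.13, and the enzyme less transport difference from -0.13 to 0.083, with the highest value of the last and the lowest transport median without WT replicate 3. With median-of-ratios scaling the enzyme median was 0.0052 and the transport median -0.0043. Members at an unadjusted p under 0.05 numbered 2 without WT replicate 1 (Mvd and Nr1h2) and 1 without WT replicate 3 (Acat2), all higher, and 10 higher and 1 lower with sample weights. Over all tested genes, 1172 of 17552 were higher and 399 lower at that p without WT replicate 1. The counts were 833 higher and 699 lower of 17712 without WT replicate 3. They were 3790 higher and 3179 lower of 17582 with sample weights, so many genes of every kind were called in that fit.

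Small differences changed sign between settings, none of them past the threshold in either. With median-of-ratios scaling the log2 differences were Mvk -0.041, Pmvk -0.053, Idi1 -0.057, Fdft1 -0.035, Insig2 -0.038, Abcg1 -0.046, Soat1 -0.0043 and Cyp46a1 -0.068. With quantile normalization they were Idi1 -0.047, Insig2 -0.036, Apoe 0.081, Abcg1 -0.070, Soat1 -0.027 and Cyp46a1 -0.013, and with mitochondrial genes removed Cyp46a1 -0.0096. With sample weights they were Idi1 -0.12, Fdps 0.081, Lss -0.090, Nsdhl -0.051, Hsd17b7 -0.0029, Ebp 0.086, Apoe 0.082, Npc2 0.044, Stard4 -0.081, Abca1 -0.091, Abcg1 -0.041, Soat1 -0.090 and Cyp46a1 -0.0017. With 1 sample left out in turn, the signs of these members changed: Idi1 from -0.063 to 0.11, Mvk from -0.042 to 0.097, Pmvk from -0.082 to 0.16, Fdft1 from -0.0011 to 0.098, Fdps from -0.14 to 0.12, Lss from -0.032 to 0.34, Hsd17b7 from -0.036 to 0.25, Ebp from -0.11 to 0.079, Apoe from -0.068 to 0.081, Npc2 from -0.074 to 0.061, Stard4 from -0.014 to 0.17, Abca1 from -0.051 to 0.34, Abcg1 from -0.11 to 0.097, Soat1 from -0.069 to 0.13, Cyp46a1 from -0.10 to 0.14 and Insig1 from -0.12 to 0.011. The cause was not tested.

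No label says whether same-numbered samples share more than a number. Their deviations from the group means correlated at 0.13, 0.17 and -0.10 for replicates 1, 2 and 3. Replicates 1 and 2 of both genotypes, 4 of the 7 samples, correlated best with their own number in the other genotype. WT replicate 4 has no partner of its number. Whether the numbers mark pairs cannot be told from these values. With the replicate block 0 members passed, and the sign of Pmvk -0.011 was the only one to change. TPM gives no read total, so what depth limits cannot be stated. The median SE of the members was 0.15 with all samples and 0.08 without WT replicate 3.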
